A study of Mus musculus with 10 samples.

Results

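The Skint genes encode butyrophilin-like membrane proteins of the skin and thymus. The genes described here are Skint1 to Skint10, taken by name. Of the 10, 6 are the single gene symbol of a probe set in the platform annotation, among 19938 genes with such a probe set. These 6 are Skint2, Skint3, Skint4, Skint7, Skint9 and Skint10, each with 1 probe set. Skint1, Skint5, Skint6 and Skint8 were not analysed here.

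Skint1, the founder of the family, is known for directing the selection in the fetal thymus of the T cells that later settle in the epidermis of the mouse. These dendritic epidermal T cells carry a nearly invariant gamma-delta receptor, sit among keratinocytes and respond to their stress and wounding. Skint proteins of keratinocytes are thought to speak to them, and Skint3 and Skint9 in particular have been tied to the signals that wound-edge keratinocytes send. The family lies in 1 cluster, and its members are related in sequence.

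Epidermis was separated from the dermis of 3 day-old mice with dispase, and its RNA was measured on whole-transcript arrays, 1 array per mouse. The 5 ILK-deficient (K14Cre; Ilk f/f) and 5 ILK-expressing (K14Cre; Ilk f/+) mice were littermates by the study's description, and all 10 carried 1 copy of the KRT14-cre transgene. The keratin 14 promoter drives Cre in keratinocytes of the basal layer and their descendants, so other cells of the epidermis keep Ilk, and the ILK-expressing controls had themselves lost 1 of the alleles in keratinocytes. In tissue RNA, fewer cells of a type and less RNA per cell cannot be told apart.

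Values are log2 expression values, and log2 fold changes set ILK-deficient over ILK-expressing arrays. Adjusted p values come from limma unless another test is named, adjusted by Benjamini-Hochberg across the 32046 tested probe sets, and a gene is said to have risen or fallen where this is under 0.05. With 5 arrays against 5, 0.00794 is the smallest p of the exact permutation test (two-sided), and it is reached where the genotypes do not overlap. Ilk itself had a mean of 8.94 ± 0.118 in ILK-deficient and 9.17 ± 0.181 in ILK-expressing epidermis (SD, n = 5 each), differing by -0.23 (adjusted p = 0.253 from limma), and this probe set pools exons that the deletion leaves in place. The study reports strongly reduced ILK protein in such epidermis. It also reports, on these arrays, substantially lower signals of exons within the deleted part and similar signals of the first exons. Krt5, Krt14, Krt1 and Krt10, the keratins that define basal and suprabasal keratinocytes, had means between 13.12 and 14.12. ILK-expressing replicate 5 stood apart from the rest, with a median correlation of 0.975 with its own genotype against 0.980 to 0.988 for the other 9 arrays, and results whose call or count changes without it are also given without it.

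The first letter of the mouse code in the labels was D for 4 ILK-deficient and 3 ILK-expressing mice, D' for 1 of each and C' for ILK-expressing replicate 5 alone. The labels do not say what the letter means, so no batch is claimed for it, and values by letter are given with the main results.

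The sequences ahead of the start sites show how the genes are related. Each holds the 250 bases before the annotated start (RefSeq, GRCm38.p6), written in the direction of the gene. Capitals mark runs of 12 or more bases that also occur in the compared gene: Skint8 for Skint7 and Skint7 for Skint8, Skint3 for Skint2, Skint9 for Skint10 and Skint10 for Skint9. Skint7 and Skint2 are shown because their genotypes did not overlap, and Skint10 because its genotypes did. Skint8 and Skint9 are shown as relatives that shared runs with Skint7 and Skint10, and Skint9 was not the closest to Skint10.

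Skint7, chr4:111972677-111972926, plus strand: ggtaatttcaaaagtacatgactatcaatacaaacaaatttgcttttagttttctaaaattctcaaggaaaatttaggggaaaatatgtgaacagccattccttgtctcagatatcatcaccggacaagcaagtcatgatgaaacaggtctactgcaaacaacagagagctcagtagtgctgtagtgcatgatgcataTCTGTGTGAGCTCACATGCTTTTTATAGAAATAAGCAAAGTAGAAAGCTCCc
Skint8, chr4:111919305-111919554, plus strand: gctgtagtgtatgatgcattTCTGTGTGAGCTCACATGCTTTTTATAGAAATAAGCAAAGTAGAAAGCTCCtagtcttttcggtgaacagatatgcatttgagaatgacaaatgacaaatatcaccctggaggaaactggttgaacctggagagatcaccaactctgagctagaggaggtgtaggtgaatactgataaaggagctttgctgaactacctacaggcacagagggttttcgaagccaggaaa
Skint2, chr4:112613490-112613739, plus strand: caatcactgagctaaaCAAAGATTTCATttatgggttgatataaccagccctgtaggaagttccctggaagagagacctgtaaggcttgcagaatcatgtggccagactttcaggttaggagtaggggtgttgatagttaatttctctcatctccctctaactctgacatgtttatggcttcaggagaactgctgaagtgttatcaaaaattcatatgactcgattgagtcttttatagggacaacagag
Skint10, chr4:112774862-112775111, minus strand: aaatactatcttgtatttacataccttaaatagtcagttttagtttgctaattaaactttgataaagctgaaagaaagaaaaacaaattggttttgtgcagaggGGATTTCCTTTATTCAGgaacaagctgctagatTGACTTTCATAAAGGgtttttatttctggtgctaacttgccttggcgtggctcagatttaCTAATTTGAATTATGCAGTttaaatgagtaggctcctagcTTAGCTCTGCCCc
Skint9, chr4:112433986-112434235, minus strand: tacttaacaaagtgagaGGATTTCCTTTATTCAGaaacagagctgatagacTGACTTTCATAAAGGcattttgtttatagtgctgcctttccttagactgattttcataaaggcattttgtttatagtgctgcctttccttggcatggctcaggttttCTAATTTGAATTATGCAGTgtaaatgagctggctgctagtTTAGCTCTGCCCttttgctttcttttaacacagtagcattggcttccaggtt

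Skint7 and Skint8, neighbours on the chromosome, shared 1 unbroken run of 51 bases, which stood next to the start in Skint7 and near the far end of the window in Skint8. Skint9 and Skint10 shared 63 bases in several runs, the longest of 19. Skint10 shared more with Skint11, at 77 bases with a longest run of 20. Skint2 and Skint3 shared 12, as did Skint2 with Skint6 and Skint2 with Skint5. Entries were found for 11 genes of the family, Skint11 included, with 2 starts for Skint4. Of the 66 pairs among the 12 entries, 17 shared a run of 12 or more, and Skint6 and Skint5 shared the most, at 140 bases.

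Short motifs were searched on both strands of the same 250 bases, TATAAA (letters of the TATA box), TGANTCA (AP-1) and TTCNNNGAA (STAT). A match at any position counted, so a TATAAA match need not be a TATA box. TATAAA, or TTTATA where it lies on the other strand, was in 7 of the 12 entries and in 12.4% of the 32851 promoters of all genes. The 7 were those of Skint8, Skint7, Skint1, Skint9, Skint2, Skint11 and 1 start of Skint4. In the sequences printed for Skint7, Skint8, Skint2 and Skint9 it occurs only as TTTATA. Skint7 and Skint8 hold it within their shared run, so related entries are not independent. TGANTCA was in the entry of Skint11 alone among the 12, and in 6.7% of all. TTCNNNGAA was in that of Skint8 alone, and in 7.0% of all.

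Of the 6 measured Skint genes, 4 reached the minimum for testing, which was a linear value of 50 on 5 of the 10 arrays. Skint7 rose, at 1 of 4, and Skint2, Skint10 and Skint3 did not pass. Over all probe sets tested, 2.81% rose and 0.97% fell, or 3.78% in either direction. Over the 18121 tested genes with 1 symbol, taken as 1 probe set each, 4.41% rose and 1.39% fell. At an unadjusted limma p under 0.05, 1 Skint gene was higher and 1 lower, against 15.9% of all probe sets in either direction, and the methods' analysis of variance called none after adjustment. That adjustment, and the lack of a fold threshold, are choices made here. The study's methods set a fold threshold, which Skint7 at 1.43-fold did not reach, and name no adjustment. The median log2 fold change of the 4 was -0.10, beside 0.00 over all probe sets.

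**Figure D1:**
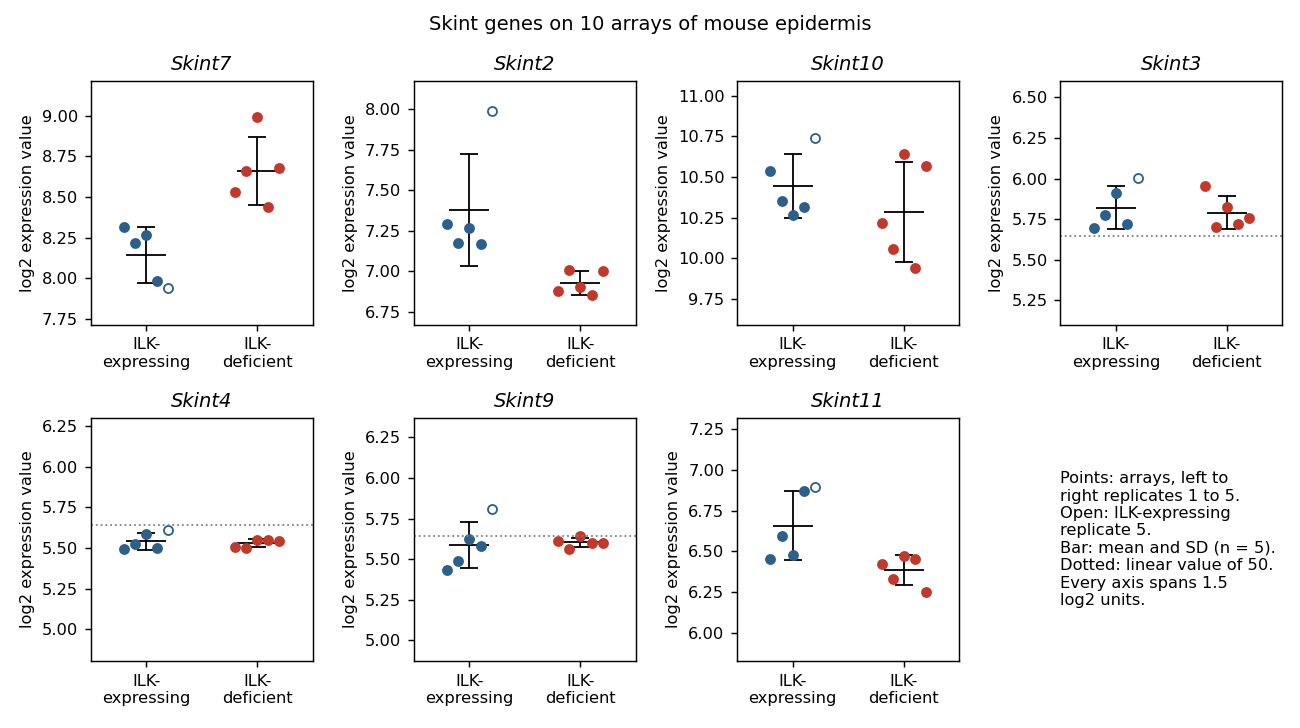
Log2 expression values of 6 Skint genes and Skint11 on 5 ILK-expressing (blue) and 5 ILK-deficient (red) arrays, with mean and SD; every axis spans the same number of log2 units, and the dotted line is a linear value of 50. The genotypes do not overlap for Skint7, higher in ILK-deficient epidermis, and Skint2, lower there, and ILK-expressing replicate 5 (open) is the lowest of its genotype for Skint7 and the highest for the other 5 members.

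Skint7 was at 8.53, 8.66, 8.99, 8.44 and 8.68 on ILK-deficient arrays 1 to 5. On ILK-expressing arrays 1 to 5 it was at 8.31, 8.22, 8.27, 7.98 and 7.94. Every ILK-deficient array lay above every ILK-expressing one, with ILK-deficient replicate 3 the highest and ILK-expressing replicates 4 and 5 the lowest. The means were 8.66 ± 0.210 and 8.14 ± 0.172 (SD, n = 5 each). The log2 fold change of 0.52 (standard error 0.114, 95% interval 0.26 to 0.77) was 1.43-fold, with an adjusted p = 0.0341 from limma and p = 0.00794 by the exact permutation test (two-sided). Genotypes not overlapping, with ILK-deficient higher, were seen for 4.37% of all probe sets and 6.66% of the genes with 1 symbol.

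The call on Skint7 was close to the threshold. Within the mice coded D, ILK-deficient values of 8.44 to 8.99 still lay above ILK-expressing values of 8.22 to 8.31, and the log2 fold change was 0.39 (adjusted p = 0.293 from limma). In the pair coded D' the difference was 0.70, with 1 array of each genotype. Without ILK-expressing replicate 5 it was 0.46 (standard error 0.116, adjusted p = 0.0660 from limma), and the call was lost. It was also lost without ILK-deficient replicate 1, 2, 3 or 5 or ILK-expressing replicate 2, 3 or 4, with adjusted p from 0.0509 to 0.0861.

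Skint2 was at 6.88, 7.01, 6.90, 6.86 and 7.01 on ILK-deficient arrays 1 to 5. On ILK-expressing arrays 1 to 5 it was at 7.29, 7.17, 7.27, 7.17 and 7.99. The ILK-deficient arrays all lay below the lowest ILK-expressing one, and ILK-expressing replicate 5 lay far above the other 4 of its genotype. The means were 6.93 ± 0.0721 and 7.38 ± 0.347 (SD, n = 5 each). The log2 fold change was -0.45 (standard error 0.144, 95% interval -0.77 to -0.13), or 1.36-fold lower, and missed the threshold (adjusted p = 0.133 from limma; p = 0.00794 by the exact permutation test, two-sided). Genotypes not overlapping, with ILK-deficient lower, were seen for 1.96% of all probe sets and 2.74% of the genes with 1 symbol, and in either direction for 6.33% of all probe sets.

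Leaving out ILK-expressing replicate 5 made the difference smaller and its error smaller still. The ILK-expressing mean was then 7.22 ± 0.0636 (SD, n = 4), the log2 fold change -0.29 (standard error 0.0623, 95% interval -0.43 to -0.16), and Skint2 fell (adjusted p = 0.0363 from limma). Within the mice coded D it was -0.33 (adjusted p = 0.115 from limma), and in the pair coded D' -0.16.

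Within each array, Skint7 minus Skint2 was 1.58 to 2.09 on ILK-deficient arrays and -0.05 to 1.05 on ILK-expressing arrays. These differences are between different probe sets, so only their change from array to array can be read, and they follow from the values above.

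Skint10 was at 10.22, 10.06, 10.64, 9.94 and 10.57 on ILK-deficient arrays 1 to 5. On ILK-expressing arrays 1 to 5 it was at 10.54, 10.35, 10.27, 10.32 and 10.74. The genotypes overlapped, and the ILK-deficient arrays spread over most of the range, with replicates 3 and 5 high and replicate 4 lowest. The means were 10.28 ± 0.310 and 10.44 ± 0.196 (SD, n = 5 each). The log2 fold change was -0.16 (standard error 0.149, 95% interval -0.49 to 0.17, adjusted p = 0.734 from limma; p = 0.357 by the exact permutation test, two-sided), so a change of up to 0.49 downwards or 0.17 upwards lies within the interval. It was -0.17 within the mice coded D and 0.25 in the pair coded D'.

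Skint3, 1 of the genes tied to wound-edge keratinocytes, stood just above the minimum. It was at 5.95, 5.70, 5.82, 5.72 and 5.75 on ILK-deficient arrays 1 to 5 and at 5.70, 5.77, 5.91, 5.72 and 6.00 on ILK-expressing arrays 1 to 5. The genotypes overlapped throughout. The log2 fold change was -0.03 (standard error 0.0782, 95% interval -0.20 to 0.14, adjusted p = 0.934 from limma).

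Skint4 and Skint9, the other wound-edge gene, lay at or under the minimum, which is 5.64 on the log2 scale. Skint4 ranged from 5.50 to 5.55 on ILK-deficient and from 5.49 to 5.61 on ILK-expressing arrays, and none of the 10 reached the minimum. Skint9 ranged from 5.56 to 5.64 and from 5.43 to 5.81, and only ILK-expressing replicate 5 reached it. Neither was tested, and at such values a change would be hard to detect. The differences of means were -0.01 and 0.02 (exact permutation test, two-sided, p = 0.611 and 0.873).

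Skint11, a further gene of the cluster outside the 10, was at 6.42, 6.33, 6.47, 6.45 and 6.25 on ILK-deficient arrays 1 to 5. On ILK-expressing arrays 1 to 5 it was at 6.46, 6.59, 6.48, 6.87 and 6.90. The genotypes overlapped by the lowest ILK-expressing array, and replicates 4 and 5 of that genotype were the highest. The log2 fold change was -0.27 (standard error 0.101, 95% interval -0.50 to -0.05, adjusted p = 0.193 from limma; p = 0.0159 by the exact permutation test, two-sided).

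Single arrays stood highest or lowest of their genotype for several members. ILK-expressing replicate 5 had the highest value of its genotype for 5 of the 6 measured members and the lowest for Skint7. Among ILK-deficient arrays, replicate 3 was the highest for 3 of the 6, and replicates 2 and 4 were the lowest for 3 each. ILK-expressing replicate 1 was also the lowest of its genotype for 3. For it and ILK-deficient replicate 2 these were Skint3, Skint4 and Skint9, which lay near or under the minimum. ILK-deficient replicate 2 was the highest of its genotype for Skint2, and ILK-expressing replicate 1 for Skint7. Related members may share probe sequences, and since the probes were not analysed here, how far the probe sets are independent was not tested.

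On chromosome 4 the genes stand in the order Skint8, Skint7, Skint1, Skint4, Skint3, Skint9, Skint2, Skint10, Skint6, Skint5 and Skint11 (RefSeq, GRCm38.p6). The 5 nearest protein-coding genes on each side were all tested, and 1 of the 10 rose and none fell (at an unadjusted limma p under 0.05, 3 higher and 1 lower; by the methods' analysis of variance, 1 higher and none lower). Of all tested genes with 1 symbol, 4.41% rose and 1.39% fell. The riser was Spata6, a gene of sperm formation, which lies on the Skint8 side with Slc5a9 between. Spata6 was at 8.52 ± 0.124 and 7.96 ± 0.181 (SD, n = 5 each), which differ by 0.56 (standard error 0.0960, adjusted p = 0.0124 from limma). Slc5a9, a sugar transporter and the nearest gene on that side, was at -0.34 (adjusted p = 0.169), and Trabd2b, an inhibitor of Wnt proteins and the nearest on the other side, at 0.34 (adjusted p = 0.137). Without ILK-expressing replicate 5, 2 of the 10 rose, Spata6 at 0.64 (adjusted p = 0.00396 from limma) and Trabd2b at 0.42 (adjusted p = 0.0412). Bend5 was at 0.15 (adjusted p = 0.228), and the remaining 6 of the 10, Elavl4, Agbl4, Foxd2, Foxe3, Cmpk1 and Stil, lay between -0.07 and 0.19.

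**Figure D2:**
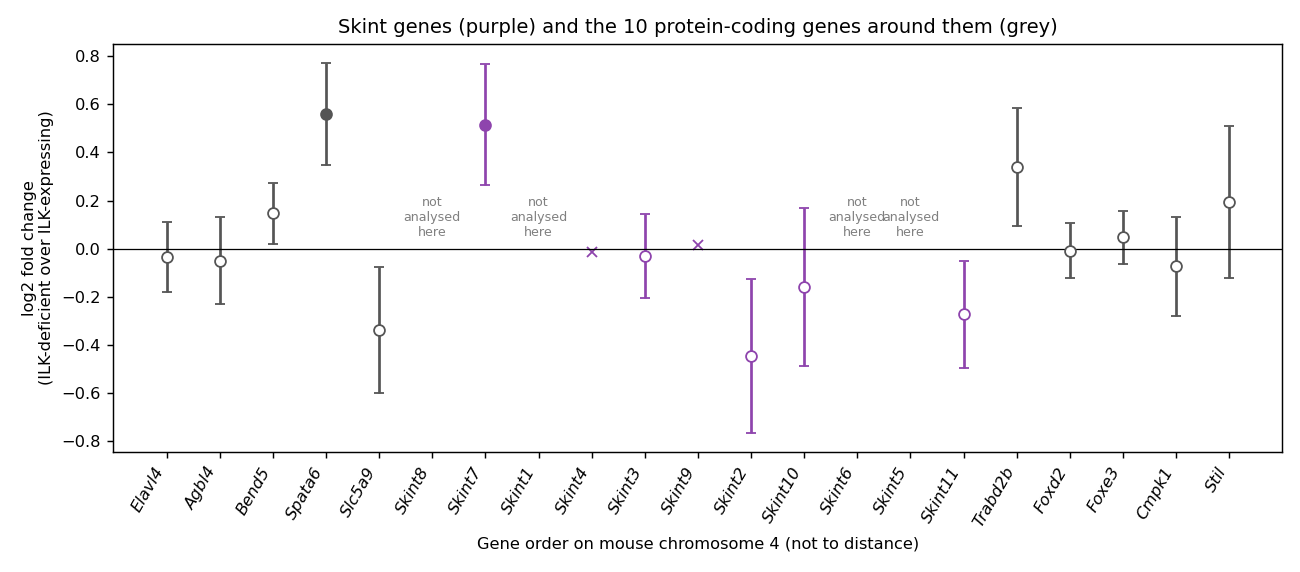
Log2 fold change (ILK-deficient over ILK-expressing) with its 95% interval for the Skint genes (purple) and 10 protein-coding genes around them (grey), in their order on chromosome 4 and not to distance; filled points passed the test and crosses were under the minimum and not tested. Skint7 at 0.52 and Spata6 at 0.56 are the filled points, and Skint2 at -0.45 lies lowest.

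Transcripts of epidermal T cells were present on the arrays of both genotypes, and the receptor genes tested did not differ beyond the spread between mice. Cd3g and Cd3e, which encode chains of the T cell receptor complex, were at 0.23 (adjusted p = 0.889 from limma) and 0.18 (adjusted p = 0.871). Cd3g ranged from 8.25 to 9.79 on ILK-deficient and from 7.87 to 9.75 on ILK-expressing arrays, so that mice of 1 genotype differed by more than the genotypes did. Cd247, another chain, was at -0.02 (adjusted p = 0.959), Cd3d lay at the minimum and was not tested, and Trdc, the delta chain constant gene, was not analysed here.

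Of 18 epidermal T cell genes tested, 1 rose and none fell, with a median log2 fold change of 0.10. Of all tested genes with 1 symbol, 4.41% rose and 1.39% fell. The riser was Thy1, a surface protein of these cells and also of some fibroblasts, at 8.21 ± 0.158 and 7.81 ± 0.133 (SD, n = 5 each), which differ by 0.39 (standard error 0.0917, adjusted p = 0.0421 from limma). Without ILK-expressing replicate 5 Thy1 was at 0.40 (adjusted p = 0.0686) and no longer passed, and no gene of the list was called under 16 of 23 other settings. Itgae, the integrin chain that holds these cells to E-cadherin, was at 0.27 (adjusted p = 0.121). The summed linear level of the list ran from 2426 to 3457 on ILK-deficient and from 2178 to 3353 on ILK-expressing arrays.

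Among 10 genes for products of these T cells and 7 for signals that keratinocytes send them, limma called none. At an unadjusted limma p under 0.05, 2 of the 10, Ccl3 and Ccl5, were higher and none of the 7 differed, and the methods' analysis of variance called none in either list. The medians were 0.06 and -0.03. Il15, a cytokine that keeps the T cells alive, was at -0.03 (adjusted p = 0.977), Il7 at -0.19 (adjusted p = 0.446), and Cdh1, which encodes the E-cadherin that Itgae binds, at -0.01 (adjusted p = 0.967). Of 8 butyrophilin relatives of Skint, none was called by limma, by the methods' analysis of variance or at an unadjusted limma p under 0.05, and their median was -0.03.

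STAT3, which cytokines of the interleukin-6 family and interleukin-22 family activate in keratinocytes, has been placed upstream of Skint genes in wounded skin. Of 13 genes of this pathway tested, 4 rose and none fell, with a median of 0.15. Over all tested genes with 1 symbol, 4.41% rose. The ligands Il6, Osm and Lif lay at or under the minimum and were not tested. Osmr, the oncostatin M receptor, was at 8.85 ± 0.184 and 7.96 ± 0.237 (SD, n = 5 each), which differ by 0.88 (standard error 0.124, adjusted p = 0.00543 from limma). Lifr, the receptor of leukaemia inhibitory factor, rose by 0.82 (adjusted p = 0.0208), Il20ra, a receptor chain for interleukin-20, by 0.68 (adjusted p = 0.00693), and the kinase Jak2 by 0.43 (adjusted p = 0.0167). All 4 still passed without ILK-expressing replicate 5, and Osmr alone of them passed within the mice coded D, at 0.87 (adjusted p = 0.0214 from limma). Lifr no longer passed without ILK-deficient replicate 5 (adjusted p = 0.0591), without ILK-expressing replicate 2 (0.0514) or 4 (0.0552) or by the methods' analysis of variance (0.0602), and Jak2 did not with the replicate number as a block (0.0542). Stat3 itself was at 0.19 (adjusted p = 0.303) and its target Socs3 at 0.68 (adjusted p = 0.177), neither of which passed, and Il6st, the shared receptor chain, was at -0.27 (adjusted p = 0.187). Of the 13 genes, 10 lay above 0, and the 3 below were Il6st, Il20rb at -0.10 and Il22ra1 at -0.15. Il20ra was low, with means of 6.74 in ILK-deficient and 6.06 in ILK-expressing epidermis against a minimum of 5.64.

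**Figure D3:**
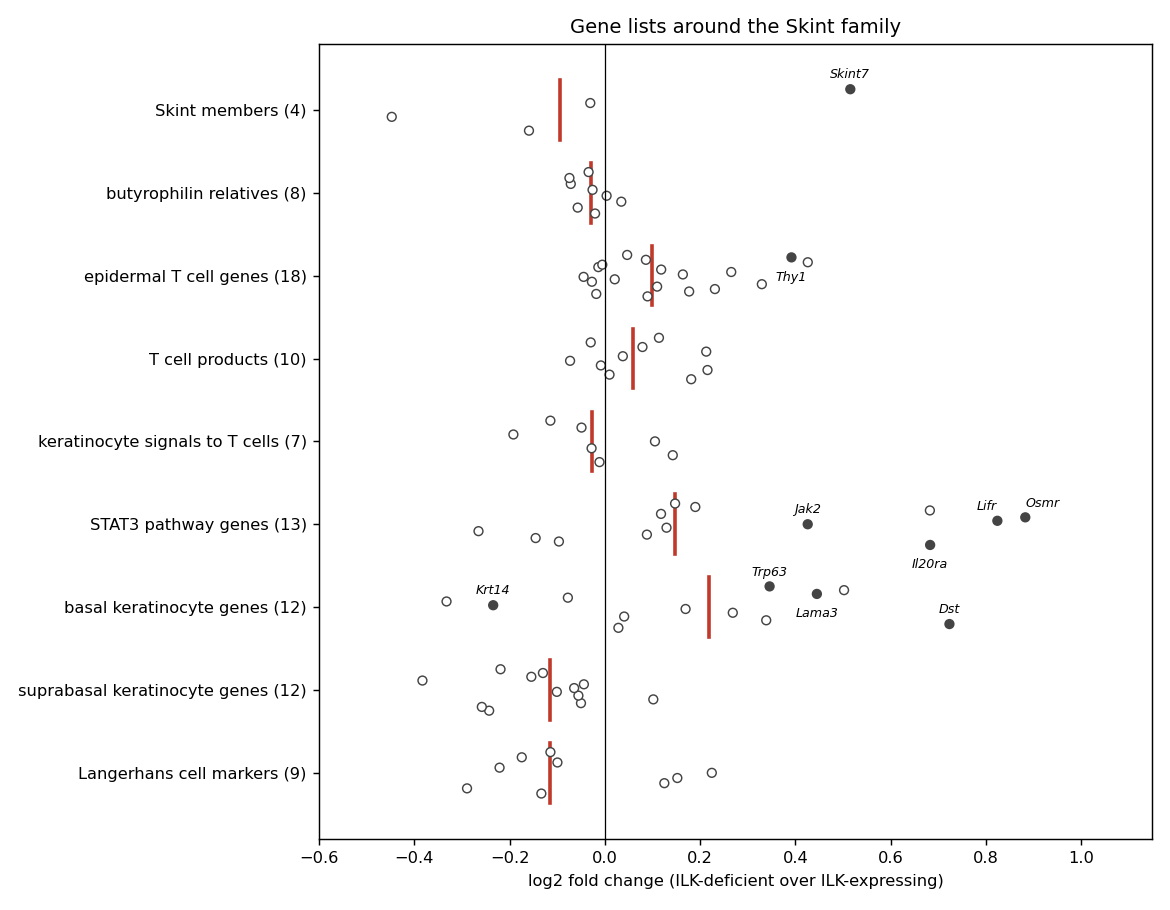
Log2 fold changes (ILK-deficient over ILK-expressing) of the tested genes of each list, 1 point per gene, with the number tested in brackets and the median as a red bar; filled points passed the test. Skint7 is the filled Skint gene at 0.52, and the 4 filled STAT3 pathway genes lie between 0.43 and 0.88.

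Some keratinocyte genes differed between the genotypes as well, where 4.41% of all tested genes with 1 symbol rose and 1.39% fell. Of 12 basal keratinocyte genes, 3 rose (Dst at 0.72, Lama3 at 0.45 and Trp63 at 0.35, which encode a hemidesmosome linker, a laminin chain and a transcription factor of basal cells) and Krt14 fell, at -0.23 (adjusted p = 0.0452 from limma), a call lost under 14 of 23 other settings. The count of basal genes that rose was 0 with the letter as a block, within the mice coded D, and without ILK-deficient replicate 1 or 5 or ILK-expressing replicate 4, and 1 by the methods' analysis of variance and without ILK-expressing replicate 2. It was 5 after quantile normalization again and with the keratin scaling. Of 12 suprabasal genes limma called none, 3 were lower at an unadjusted p under 0.05, and the methods' analysis of variance called none. Summed linear levels ran from 45927 to 49949 and from 45979 to 53796 for the basal list on ILK-deficient and ILK-expressing arrays, and from 106812 to 119519 and from 115921 to 129430 for the suprabasal list.

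Some markers of other cells differed between the genotypes too, mostly those of the hair and melanocyte lists. The same shares over all tested genes, 4.41% higher and 1.39% lower, apply to these lists. Of 13 genes of the hair shaft and inner root sheath 12 fell (summed linear levels 1875 to 4650 on ILK-deficient and 16426 to 76213 on ILK-expressing arrays), and melanocyte markers rose in 5 of 8, which were Tyr, Dct, Pmel, Mitf and, named after its values were seen, Sox10 (7623 to 13990 against 2458 to 5099). The count of hair genes that fell was 11 without ILK-expressing replicate 5, 10 to 11 over all fits without 1 array, and 9 by the methods' analysis of variance. The melanocyte count was 2 without ILK-expressing replicate 5 and also without ILK-deficient replicate 2, 4 or 5. It was 3 without ILK-deficient replicate 1 or ILK-expressing replicate 2, 3 or 4 and with the letter as a block, and 1 by the methods' analysis of variance and within the mice coded D. Of fibroblast markers 1 of 9 rose, Vim (10526 to 14180 against 6022 to 10952 for the list), and of endothelial and muscle markers 1 of 7, Acta2 (927 to 1920 against 515 to 563). Dcn and Vim had the highest values of the fibroblast list, so its sum rests mostly on them. The endothelial and muscle sum differed through Acta2, at 2.75, and the other 6 tested genes of that list lay between -0.05 and 0.08. Of 9 Langerhans cell markers limma called none, nor did the methods' analysis of variance, nor an unadjusted limma p under 0.05 (8857 to 10937 against 8110 to 12479). Of the defining markers, Pecam1 and Cdh5 of vessels lay near the minimum, at 5.81 and 5.84 and at 5.97 and 5.92. The part of these shifts in the Skint values was not tested.

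Across the 10 arrays, the mean profile of the 4 tested Skint genes, each taken minus its own mean, was highest on ILK-expressing replicate 5 at 0.24 and ILK-deficient replicate 3 at 0.16. It was lowest on replicate 4 of both genotypes, at -0.19 in ILK-deficient and -0.13 in ILK-expressing epidermis. The genes whose values followed it most closely, of 18116 compared, were Elovl1 (Pearson's r = 0.97), Mfsd14b (0.95), Spag1 (0.93), Slc28a3 (0.92) and Krt78 (0.91). None of the 5 passed the test between genotypes, and their log2 fold changes lay between -0.19 and 0.00. The profile averages Skint7, higher in ILK-deficient epidermis, with Skint2, lower there, so genes chosen to follow it could hardly differ between genotypes. These are correlations over 10 arrays that share a normalization, chosen as the highest of many, and are given as a description.

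Taken singly, the members had different nearest genes, chosen after the values were seen. Skint7 was followed most closely by Txnip (r = 0.97), Tnfaip3 (0.97) and Tmtc1 (0.96), which rose by 0.84, 0.99 and 0.67 (adjusted p = 0.0168, 0.0185 and 0.0176 from limma). Skint2 was followed by Hibch (0.96), Il1f10 (0.96) and Gsta3 (0.96), and Skint10 by Gch1 (0.95), Mfsd14b (0.93) and Slc28a3 (0.92). None of these last 6 passed. Genes chosen for following Skint7, whose genotypes did not overlap, were likely to differ with it, so their calls add no support.

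Over 23 other settings of filter, scaling, test, block and arrays, the log2 fold change of Skint7 lay between 0.39 and 0.62 and its call held in 9. That of Skint2 lay between -0.50 and -0.29 and passed in 1. That of Skint10 lay between -0.25 and -0.05 and passed in none.

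**Figure D4:**
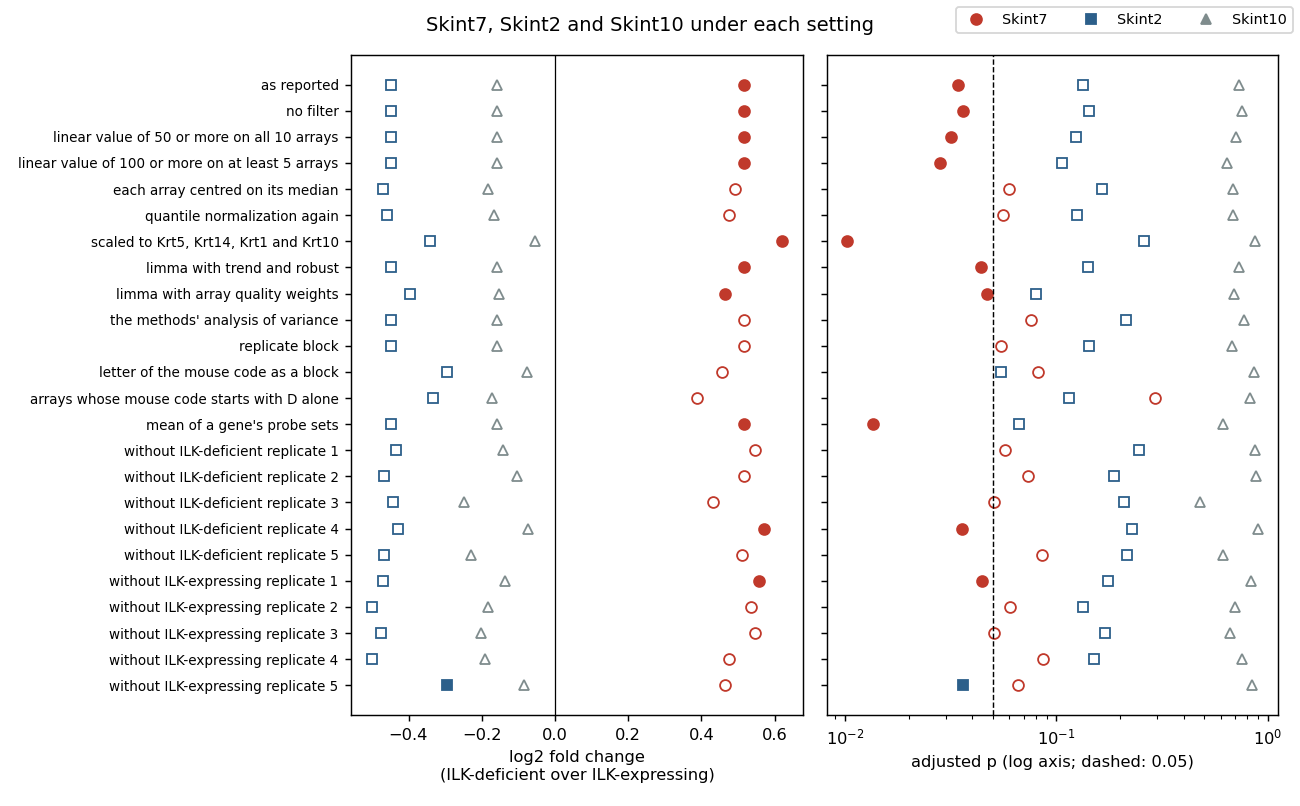
Log2 fold change (left) and limma or analysis of variance adjusted p on a log axis (right) of Skint7, Skint2 and Skint10 as reported and under 23 other settings; filled symbols passed the threshold of 0.05, the dashed line. Skint7 runs from 0.39 to 0.62 and Skint2 from -0.50 to -0.29, and several settings change the adjusted p alone.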

How the data were processed

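GeneChip Mouse Gene 1.0 ST Arrays were hybridised with RNA of 10 epidermal samples. The authors deposited log2 values per probe set, background-adjusted, quantile-normalized and summarised. The study's methods name GC-RMA, RMA Express and Partek, the processing notes of the submitters list Partek and RMA, and which of them made the table is not stated. Genotypes came from the sample labels. The number of arrays limits the precision.

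Probe sets were named from the platform annotation. Those reaching a linear value of 50 on 5 of the 10 arrays, 32046 of 35556, were tested with lmFit and eBayes of limma 3.58.1 (R 4.3.3) without covariates, with Benjamini-Hochberg adjustment over these. Single genes were also compared by exact permutation tests over the 126 splits of the arrays. Intervals are 95%. The Skint genes and the gene lists were chosen with earlier results of these data known. Named are all members, Skint11, the neighbours, Ilk, the reference keratins, the defining T cell markers, Stat3, Il15, Il7, up to 4 called genes per list and the 5 genes most like the members' mean profile. Others named, Sox10 and the genes most like single members included, were chosen after their values were seen. Promoters were read from RefSeq (GRCm38.p6), by symbol. Protein sequences were not used here, so the planned identity of the members' proteins was not computed. Other settings of filter, scaling, test, block, probe sets per gene and arrays were tried.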

Additional observations from a re-analysis of the deposited data

Results flagged for a closer look

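Skint2 on ILK-expressing replicate 5 was at 7.99, while the other 4 ILK-expressing arrays lay between 7.17 and 7.29. The gap to the nearest array was 0.851 of the range of the genotype, above Dixon's critical value of 0.71 for 5 samples. Of 14 groups checked, 6 members and Skint11 in each genotype, this was the 1 that stood out, and chance alone gives about 1 in 20.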

How the results depend on the processing

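Over all probe sets, 900 were called higher and 311 lower. The counts were 593 higher with each array centred on its median, 481 lower after quantile normalization again, 2044 higher and 175 lower when scaled to Krt5, Krt14, Krt1 and Krt10, 528 and 158 by the methods' analysis of variance, 193 and 101 within the mice coded D, and 473 lower with probe sets averaged per gene, which also left out probe sets without a single symbol and so made 18121 tests. Leaving out 1 array at a time gave 439 to 793 higher and 158 to 281 lower. The keratin scaling moved the median of all probe sets to 0.11 and the share of calls that were higher from 74.3% to 92.1%. Skint7 was then at 0.62 (adjusted p = 0.0102 from limma). Without that scaling Krt5, Krt14, Krt1 and Krt10 were themselves at -0.08, -0.23, -0.06 and -0.04. Scaling to them therefore raised the log2 fold change of every probe set. Of the Skint genes, 1 was called higher, and 0 with median centring (adjusted p = 0.0596 for Skint7), with quantile normalization again (0.0560), by the analysis of variance (0.0756), with the letter as a block (0.0821) and within the mice coded D (0.293). Without 1 array the count was 0 to 1: the call on Skint7 was lost without ILK-deficient replicate 1, 2, 3 or 5 or ILK-expressing replicate 2, 3, 4 or 5, with adjusted p from 0.0509 to 0.0861, and held without the other 2. The count of lower Skint genes was 0, and 0 to 1 without 1 array, the 1 being Skint2 without ILK-expressing replicate 5. The cause of the other changes in these counts was not tested.

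Replicate numbers are shared by the genotypes but did not pair the samples: correlations of deviations between arrays of the same number ran from -0.30 to 0.11, and 0 of 5 ILK-deficient arrays correlated best with their own number. With the replicate number as a block, 477 probe sets were higher and 131 lower, and 0 Skint genes were called (adjusted p = 0.0550 for Skint7). Depth on arrays limits Skint3, Skint4 and Skint9 most, whose signals lay near the minimum of 50.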
